A study of Homo sapiens with 2 samples.

Results

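The 6 genes SUV39H1, SUV39H2, SETDB1, SETDB2, EHMT1 and EHMT2 encode enzymes that methylate lysine 9 of histone H3 (H3K9). They were chosen by name from a count table of 26485 genes. All 6 were found and all 6 were measured, meaning at least 1 CPM (counts scaled to a common library size) in the higher library. Total RNA was sequenced from 2 established human leiomyosarcoma lines, both given the solvent DMSO: SK-LMS-1 (1 library, 6906280 counts) and SK-UT-1 (1 library, 7635850 counts). Leiomyosarcoma is a tumour of smooth muscle. The series concerns SUV39H2 inhibition combined with inhibition of poly(ADP-ribose) polymerases, and the samples described here had the solvent alone. With 1 library a line no test between the lines is possible, no difference has a replicate check, and the line and the library cannot be told apart. The range in parentheses after a value is its exact 95% interval, which covers counting error only and takes each fragment as independent.

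H3K9 methylation marks silent chromatin. SUV39H1 and SUV39H2 are the enzymes best known for trimethylation of H3K9 in the constitutive heterochromatin beside centromeres, where HP1 proteins bind the mark. SETDB1 is brought by TRIM28 to retroelements and trimethylates H3K9 there, and SETDB2 is its closest paralogue. EHMT1 (GLP) and EHMT2 (G9a) work as a heterodimer that places monomethyl and dimethyl marks, mostly in euchromatin. All 6 carry the catalytic SET domain, whose most conserved stretch binds the methyl donor and forms part of the active site.

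The coding sequence of that SET stretch is shown for each gene, because it is what the paralogues share and where counts could in principle be confused between them. Each line gives 60 bases of the GENCODE 29 principal transcript, read 5′ to 3′ on the coding strand. Capitals mark the 21 bases of the conserved motif, whose codons begin with those for asparagine and histidine and end with those for proline and asparagine.
SUV39H1: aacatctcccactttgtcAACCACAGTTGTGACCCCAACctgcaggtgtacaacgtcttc
SUV39H2: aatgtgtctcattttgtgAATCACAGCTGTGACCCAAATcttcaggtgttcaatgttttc
SETDB1: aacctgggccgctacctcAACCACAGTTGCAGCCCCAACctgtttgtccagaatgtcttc
SETDB2: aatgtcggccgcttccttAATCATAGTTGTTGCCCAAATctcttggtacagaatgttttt
EHMT1: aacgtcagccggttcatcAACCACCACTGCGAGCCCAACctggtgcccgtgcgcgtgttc
EHMT2: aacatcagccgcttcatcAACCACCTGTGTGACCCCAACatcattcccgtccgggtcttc

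Within these windows SUV39H1 and SUV39H2 had 46 of 60 bases in common, SETDB1 and SETDB2 had 44, and EHMT1 and EHMT2 had 47. The motif alone had 17, 15 and 17 of 21 bases in common in the same 3 pairs. In GRCh38 the windows lay at chrX:48706385-48706530 for SUV39H1, chr10:14899659-14901165 for SUV39H2, chr1:150963721-150964033 for SETDB1 and chr13:49488610-49490860 for SETDB2, each crossing 1 exon junction. Those of EHMT1 at chr9:137834388-137834447 and of EHMT2 at chr6:31880750-31880809 each lay in 1 exon. The longest run of bases that was identical between any annotated transcripts of a pair was 13 bases for SUV39H1 and SUV39H2, 31 bases for SETDB1 and SETDB2 and 36 bases for EHMT1 and EHMT2. A fragment longer than these runs differs between the paralogues by at least 1 base. Shared runs were not confined to paralogues, as SUV39H2 had 29 bases in common with SETDB1.

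In the hg38 table SUV39H1 spans chrX:48695554-48709015, SUV39H2 chr10:14878783-14904305, SETDB1 chr1:150926339-150964744, SETDB2 chr13:49444293-49495003 and EHMT1 chr9:137618992-137836126, all on the plus strand. EHMT2 lies on the minus strand in the major histocompatibility complex, at chr6:31879760-31897707. The table lists EHMT2 at 6 further alternative haplotype sequences of that region, so its deposited length of 28320 bases sums 7 loci, against 4204 bases of merged exons on chromosome 6 itself. Whether fragments that also align to those copies went uncounted, and alike in both lines, was not tested. The level of EHMT2, its rank, its ratio between the lines and the ratio of EHMT1 over EHMT2 are uncertain to that extent. No other listed gene shared exons with any of the 6. RefSeq annotates a read-through transcript of SETDB2 into its downstream neighbour PHF11, so fragments counted for SETDB2 can include it.

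SUV39H1 was the 1 member that differed by 2-fold or more between the lines. It had 88 counts (13.4 CPM, 10.8 to 16.5) in SK-LMS-1, against 255 counts (31.7 CPM, 27.9 to 35.8) in SK-UT-1. The log2 ratio (SK-LMS-1 over SK-UT-1) was -1.24 (-1.60 to -0.88). The interval reached inside 2-fold, so at this depth the difference was detectable but its being past 2-fold was not. Among all 14324 measured genes, 18.3% were higher in SK-UT-1 by 2-fold or more, 21.9% were higher in SK-LMS-1 by as much, and 40.2% differed by 2-fold in either direction. A count of 1 in 6 is therefore not above the level of the libraries as a whole. A lower ratio than that of SUV39H1 was found for 14.5% of measured genes.

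SUV39H2, the enzyme the study's inhibitor is aimed at, was the member closest to equal. It stood at 349 counts (53.3 CPM, 47.8 to 59.2) in SK-LMS-1 cells and 453 counts (56.3 CPM, 51.2 to 61.7) in SK-UT-1, with overlapping intervals. Its log2 ratio of -0.08 (-0.29 to 0.13) held 0 with trimmed mean of M values (TMM) scaling, so no difference was detectable at this depth with that scaling. Library totals gave -0.23 (-0.44 to -0.03), an interval that excluded 0, as did 2 of the 4 remaining scalings.

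SETDB1 was lower in SK-LMS-1 cells and its paralogue SETDB2 was higher there, the only member with a ratio above 0. SETDB1 had 159 counts (24.3 CPM, 20.6 to 28.3) in SK-LMS-1, against 344 counts (42.7 CPM, 38.3 to 47.5) in SK-UT-1. SETDB2 had 132 counts (20.1 CPM, 16.9 to 23.9) in SK-LMS-1, against 107 counts (13.3 CPM, 10.9 to 16.1) in SK-UT-1. The log2 ratios were -0.82 (-1.10 to -0.54) for SETDB1 and 0.60 (0.22 to 0.98) for SETDB2, and neither counting interval held 0.

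Both partners of the GLP/G9a heterodimer were lower in SK-LMS-1 cells and by similar amounts. EHMT1 had 309 counts (47.2 CPM, 42.05 to 52.7) in SK-LMS-1, against 671 counts (83.4 CPM, 77.2 to 89.9) in SK-UT-1. EHMT2 had 473 counts (72.2 CPM, 65.8 to 78.997) in SK-LMS-1, against 912 counts (113 CPM, 106 to 121) in SK-UT-1. The log2 ratios were -0.82 (-1.02 to -0.63) for EHMT1 and -0.65 (-0.81 to -0.49) for EHMT2.

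**Figure D1:**
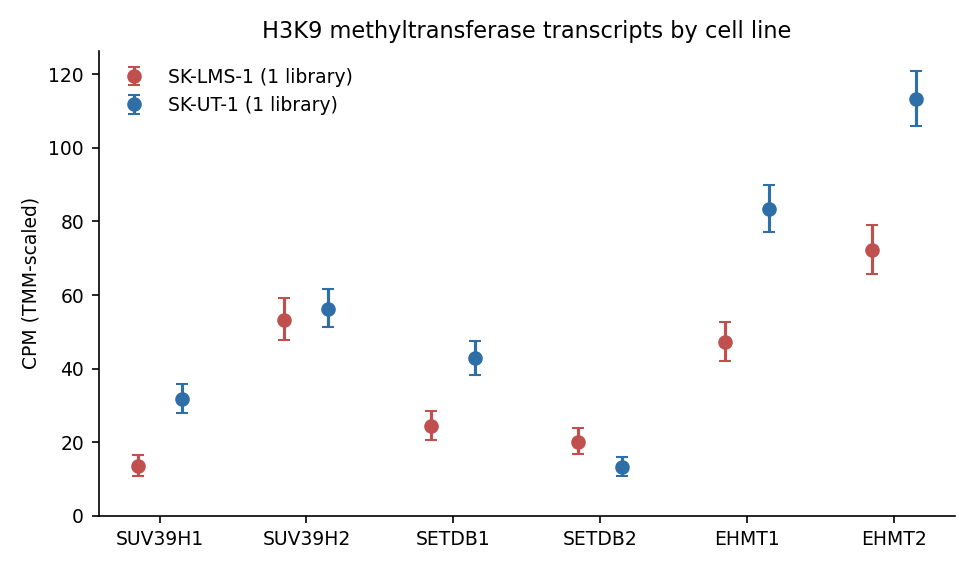
TMM-scaled CPM (vertical axis) of the 6 genes in the SK-LMS-1 library (red, left) and the SK-UT-1 library (blue, right), with exact 95% Poisson intervals. SUV39H1, SETDB1, EHMT1 and EHMT2 sit lower in SK-LMS-1 with separate intervals, SUV39H2 is at 53.3 and 56.3 CPM, and SETDB2 alone is higher in SK-LMS-1.

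Over the 6 members the log2 ratios ran between -1.24 and 0.60, with a median of -0.73, beside a median of 0.01 over all measured genes. Ratios below 0 were found for 5 of the 6, and for 49.7% of measured genes. Together the 6 genes held 1510 counts in SK-LMS-1 cells and 2742 counts in SK-UT-1, a ratio of 0.676 (0.635 to 0.721) after scaling. Scaling by library totals moved the median of all measured genes by -0.15 on the log2 scale, and the same 5 members kept ratios below 0 under each of the 5 other scalings tried. Relative to the moved median no member's ratio changes, since a scaling shifts all genes alike.

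Levels of different genes were compared per length, as CPM per kilobase (kb) of merged exons. By this measure EHMT2 was the most abundant of the 6 in both lines, at 17.2 CPM per kb (15.7 to 18.8) in SK-LMS-1 cells and 26.95 CPM per kb (25.2 to 28.8) in SK-UT-1. SETDB2 was the least abundant in both, at 3.24 CPM per kb (2.71 to 3.84) in SK-LMS-1 cells and 2.14 CPM per kb (1.75 to 2.58) in SK-UT-1. Both ranks depend on the length used. Per kb of coding sequence, an alternative chosen after seeing the data, SUV39H2 led in both lines, at 50.7 CPM per kb against 19.9 for EHMT2 in SK-LMS-1 and 53.6 against 31.2 in SK-UT-1. The lowest member in SK-LMS-1 was then SETDB1 (6.27 CPM per kb), and with no length correction it was SUV39H1 (13.4 CPM); SETDB2 stayed lowest in SK-UT-1 under both. With merged exon lengths, the spread from the highest to the lowest member was 5.30-fold in SK-LMS-1 cells and 12.6-fold in SK-UT-1.

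From high to low, the order in SK-LMS-1 per kb of merged exons was EHMT2, SUV39H2, EHMT1, SETDB1, SUV39H1 and SETDB2. SUV39H2, at 15.9 CPM per kb, did not differ from EHMT2 beyond counting error (ratio of EHMT2 over SUV39H2 1.08, 0.936 to 1.24). It stood 1.82-fold above EHMT1 at 8.74 CPM per kb (1.56 to 2.13). SETDB1 at 5.21 and SUV39H1 at 4.40 CPM per kb could not be ranked against each other (1.18, 0.907 to 1.56).

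In SK-UT-1 the order per kb of merged exons was EHMT2, SUV39H2, EHMT1, SUV39H1, SETDB1 and SETDB2. EHMT2 stood 1.60-fold above SUV39H2 (1.43 to 1.79), which was at 16.9 CPM per kb. SUV39H2 and EHMT1, at 15.5 CPM per kb, were not distinguishable (1.09, 0.966 to 1.23), nor were SUV39H1 at 10.4 and SETDB1 at 9.18 CPM per kb (1.13, 0.958 to 1.33). SETDB2 lay 4.29-fold below SETDB1 (3.45 to 5.39). With merged exon lengths, the gene that SUV39H2 could not be separated from was thus EHMT2 for SK-LMS-1 cells and EHMT1 for SK-UT-1. These ties depend on the length used. Per kb of coding sequence SUV39H2 stood above both genes in each line. Its level for SK-LMS-1 cells was 50.7 CPM per kb, against 19.9 for EHMT2 and 12.1 for EHMT1. For SK-UT-1 it was 53.6, against 31.2 and 21.4. Without length correction, EHMT1 (83.4 CPM) exceeded SUV39H2 (56.3 CPM) in the SK-UT-1 library.

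**Figure D2:**
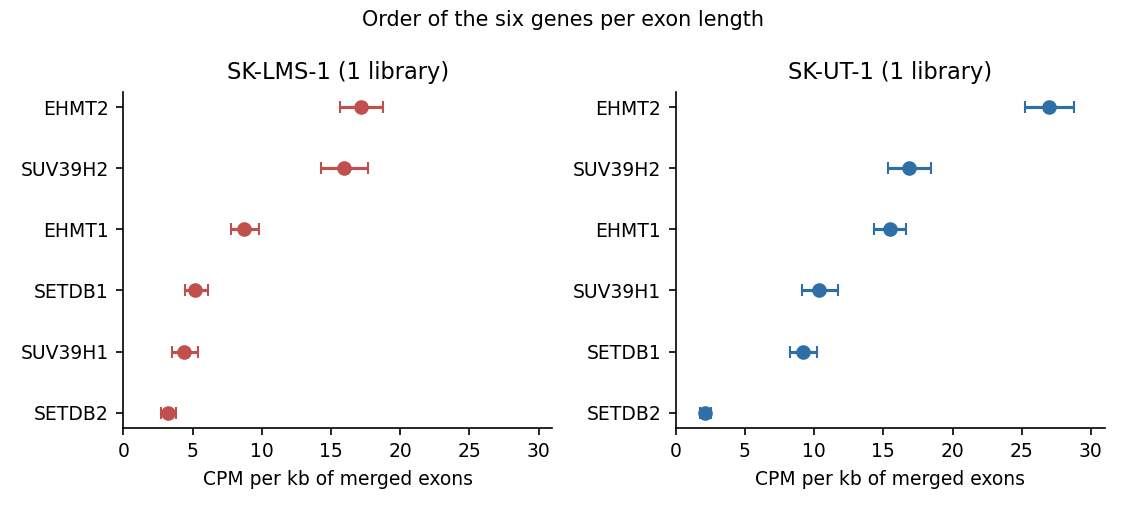
CPM per kb of merged exons (horizontal axis) of the 6 genes, ordered by level, in SK-LMS-1 (left) and SK-UT-1 (right), with exact 95% Poisson intervals. EHMT2 leads and SETDB2 is last in both lines, and SUV39H2 at 15.9 and 16.9 CPM per kb holds nearly the same level while EHMT1 stands at 8.74 CPM per kb in SK-LMS-1 cells and 15.5 in SK-UT-1.

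Within each line, 1 paralogue of every pair exceeded the other per kb of merged exons, and it was the same paralogue in both lines: SUV39H2 over SUV39H1, SETDB1 over SETDB2 and EHMT2 over EHMT1. The size of the gap differed between the lines for the first 2 pairs. SUV39H1 per kb was 0.276 of SUV39H2 (0.216 to 0.349) in SK-LMS-1, against 0.616 (0.526 to 0.719) in SK-UT-1. SETDB2 per kb was 0.622 of SETDB1 (0.490 to 0.788) in SK-LMS-1, against 0.233 (0.186 to 0.290) in SK-UT-1. The SUV39H pair was thus more uneven in SK-LMS-1 cells and the SETDB pair more uneven in SK-UT-1. EHMT1 per kb was 0.509 of EHMT2 (0.440 to 0.589) in SK-LMS-1 cells and 0.573 (0.518 to 0.634) in SK-UT-1, with overlapping intervals.

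The rank of SETDB1 over SETDB2 in SK-LMS-1 depends on which length is used. The listed exons of SETDB2 come to 6221 bases and its coding sequence to 2157 bases, against 4658 and 3870 bases for SETDB1. Per coding length the log2 ratio of SETDB2 over SETDB1 in SK-LMS-1 was 0.57 in place of -0.69, an alternative chosen after seeing the data. In SK-UT-1 it was -0.84 in place of -2.10, with SETDB1 still the higher.

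The change of a paralogue ratio between lines involves 4 counts only, so that library scaling cancels. Gene length cancels too where both lines use the same transcript forms, which was not tested. The ratio of SUV39H1 over SUV39H2 in SK-LMS-1 was 0.448 of that in SK-UT-1 (exact conditional interval 0.335 to 0.597). The ratio of SETDB2 over SETDB1 in SK-LMS-1 was 2.67 times that in SK-UT-1 (1.92 to 3.71). For EHMT1 over EHMT2 the corresponding value was 0.888 (0.743 to 1.06), an interval that holds 1, so a change between the lines was not detectable and one below 0.743 lay outside the interval.

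**Figure D3:**
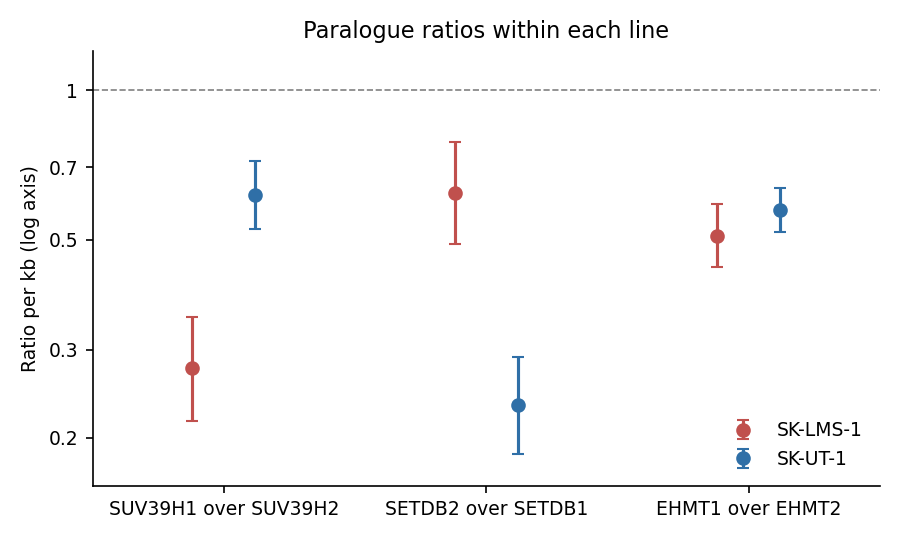
Ratio of the less abundant over the more abundant paralogue per kb (vertical log axis) in SK-LMS-1 (red) and SK-UT-1 (blue), with exact 95% intervals; the dashed line marks equality. The first 2 pairs shift in opposite directions between the lines (0.276 and 0.616 for SUV39H1 over SUV39H2, 0.622 and 0.233 for SETDB2 over SETDB1), while the intervals of EHMT1 over EHMT2 overlap.

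The same double ratio was computed for all 15 pairs of the 6 genes, without adjustment for their number, and the interval excluded 1 for 11 of them. The pairs share their genes, and the share among pairs of other measured genes was not computed. The count of 11 is therefore not a result particular to these genes. The 4 pairs whose interval held 1 were the 3 among SETDB1, EHMT1 and EHMT2, and the pair of SETDB1 and SUV39H1. SETDB1 over EHMT1 came out at 1.004 (0.790 to 1.27), so no change in their proportion between the lines was detectable. The widest shift was that of SETDB2 relative to SUV39H1, 3.57 times higher in SK-LMS-1 (2.48 to 5.16). SUV39H2 was relatively higher in SK-LMS-1 against each of SUV39H1, SETDB1, EHMT1 and EHMT2, by 1.49 to 2.23 times, and lower there only against SETDB2.

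By enzyme class, the EHMT pair made up 47.4% of the summed CPM per kb of the 6 genes in SK-LMS-1 cells and 52.4% in SK-UT-1. The SUV39H pair made up 37.2% in SK-LMS-1 cells and 33.6% in SK-UT-1, and the SETDB pair 15.4% and 14.0% in the same order of lines. SUV39H2 alone accounted for 23.1% of the 1510 counts in SK-LMS-1 (21.01 to 25.3), against 16.5% of the 2742 counts in SK-UT-1 (15.1 to 17.96). SUV39H1 accounted for 5.83% (4.70 to 7.13) in SK-LMS-1 cells and 9.30% (8.24 to 10.4) in SK-UT-1. The class shares are per kb of merged exons and the shares of single genes are of counts, so the sizes of the shifts are not compared.

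The start regions of the SUV39H pair are given because this pair held the largest and the smallest log2 ratio in size between the lines. Each is the 300-base RefSeq promoter entry of GRCh38.p14 nearest the principal transcript's start, at chrX:48696484-48696783 for SUV39H1 and chr10:14878616-14878915 for SUV39H2, both on the plus strand. For SUV39H1 2 starts are listed, and only the nearer, 139 bases from the principal transcript's start, is described. The counted exons of SUV39H1 begin upstream of that window, at chrX:48695554. Capitals mark GC boxes (GGGCGG) and CCAAT boxes (CCAAT) on either strand.
SUV39H1: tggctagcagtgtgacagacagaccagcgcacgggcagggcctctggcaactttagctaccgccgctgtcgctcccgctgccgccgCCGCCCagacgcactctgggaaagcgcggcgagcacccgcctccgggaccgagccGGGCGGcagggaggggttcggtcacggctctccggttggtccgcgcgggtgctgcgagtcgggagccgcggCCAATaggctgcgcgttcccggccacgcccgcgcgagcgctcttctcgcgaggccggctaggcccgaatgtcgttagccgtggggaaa
SUV39H2: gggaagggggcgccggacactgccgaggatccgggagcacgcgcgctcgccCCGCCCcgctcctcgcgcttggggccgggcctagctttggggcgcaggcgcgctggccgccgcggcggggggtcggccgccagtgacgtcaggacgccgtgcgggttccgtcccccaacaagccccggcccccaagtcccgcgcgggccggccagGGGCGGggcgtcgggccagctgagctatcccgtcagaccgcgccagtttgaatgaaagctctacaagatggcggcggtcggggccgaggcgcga

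Both windows were rich in CpG, with 42 CpG in SUV39H1 and 44 in SUV39H2, against a median of 14 over 35116 promoters. Each held 2 GC boxes, which 45.0% of all promoters carry at least once, and SUV39H1 held 1 CCAAT box, found in 34.6% of promoters. An E2F-type motif, searched on both strands as TTTCCCGC, TTTCGCGC, TTTGCCGC or TTTGGCGC, was found in none of the 6 members' windows and in 3.31% of all promoters, which says only that these letters are not in those windows.

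Genes within 1 Mb of each member were set beside it. Around SETDB1, on the long arm of chromosome 1, 42 of 49 measured neighbours had ratios below 0. Their median log2 ratio was -0.70 beside -0.82 for SETDB1 itself, and 19 of them were higher in SK-UT-1 by 2-fold or more. Around EHMT1 31 of 44 were below 0, with a median of -0.49 beside -0.82. Among all measured genes 49.7% were below 0 and 18.3% were higher in SK-UT-1 by 2-fold or more. Overlapping entries, such as SCNM1 and TNFAIP8L2-SCNM1, count as separate neighbours. The medians of these neighbourhoods lay on the same side of 0 as their member, and their part in its ratio was not tested.

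The ratio of SUV39H1 was near the lower end of its surroundings. The 28 measured neighbours of SUV39H1 had a median of -0.19 beside -1.24 for the gene. Of them 26 had a higher ratio than SUV39H1, as did 85.5% of all measured genes. The 65 neighbours of EHMT2 had a median of 0.19 beside -0.65. Of these 48 lay above the gene and 17 below, so EHMT2 fell inside their spread. Among all measured genes 73.7% lay above EHMT2. SUV39H2 (-0.08) lay at the median of its 9 neighbours (-0.07), and SETDB2 (0.60) above the median of its 15 (0.22).

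**Figure D4:**
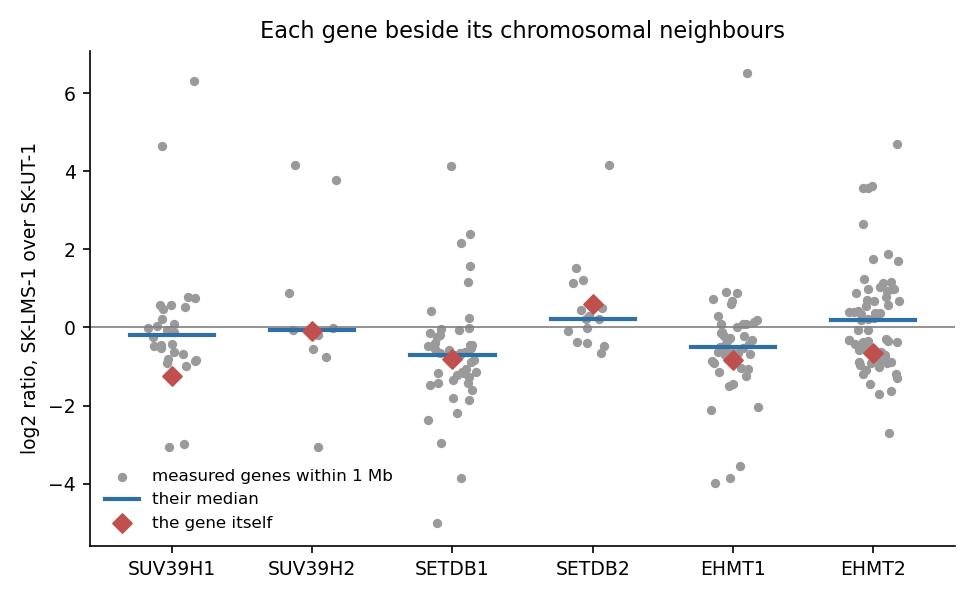
Log2 ratio of SK-LMS-1 over SK-UT-1 (vertical axis) of each member (red diamond) and of the measured genes within 1 Mb of it (grey points; blue bar, their median). The surroundings of SETDB1 (median -0.70) and EHMT1 (-0.49) lie below 0 with their member, while SUV39H1 and EHMT2 lie below the medians of their neighbours (-0.19 and 0.19), EHMT2 within their spread.

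Of 3 other genes reported to encode H3K9 methyltransferases, 2 had counts in only 1 of the lines. These 2 passed 2-fold, beside 40.2% of all measured genes. The share of measured genes with counts in only 1 line was not computed. MECOM (PRDM3) and PRDM16 are zinc finger transcription factors with a PR domain, reported in mouse cells to monomethylate H3K9. MECOM had 549 counts (83.8 CPM) in SK-LMS-1 cells and none (0) in SK-UT-1, a difference of at least 225-fold in favour of SK-LMS-1 against a floor of 3 counts per library (lower limit of the counting interval 182). PRDM16 had 0 counts in SK-LMS-1 cells and 91 counts (11.3 CPM) in SK-UT-1, a difference of at least 24.7-fold in favour of SK-UT-1 (lower limit 19.7). PRDM2, a related PR domain gene, was within 2-fold, at 142 CPM in SK-LMS-1 cells and 76.9 CPM in SK-UT-1. Each line thus held transcripts of 1 of these 2 related genes and no counts of the other.

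Measured cofactors and readers all lay within 2-fold, as did 59.8% of all measured genes. All 3 measured of 4 listed SETDB1 partners were within 2-fold (median log2 ratio -0.22), among them ATF7IP, which protects and anchors SETDB1, at 252 CPM in SK-LMS-1 cells and 292 CPM in SK-UT-1. All 3 measured of 4 listed EHMT partners were within 2-fold (median -0.17), with ZNF644, a zinc finger partner of the heterodimer, at 257 CPM in SK-LMS-1 cells and 286 CPM in SK-UT-1. The HP1 readers of the mark were within 2-fold as well (3 of 3, median -0.32), and CBX5 (HP1 alpha) stood at 588 CPM in SK-LMS-1 cells and 936 CPM in SK-UT-1. Its log2 ratio of -0.67 was about as large as that of EHMT2.

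In the HUSH complex, which silences retroelements together with SETDB1, 1 of 3 genes passed 2-fold, beside 40.2% of all measured genes. TASOR, its scaffold, had 234 CPM in SK-LMS-1 cells and 88.2 CPM in SK-UT-1, a direction opposite to that of SETDB1. PPHLN1 was also higher in SK-LMS-1 (95.7 CPM, against 76.5 CPM in SK-UT-1). MPHOSPH8 went the same way as SETDB1, at 26.9 CPM in SK-LMS-1 cells and 42.5 CPM in SK-UT-1. Of the 11 demethylases that remove H3K9 methylation none passed 2-fold, and 10 had ratios below 0 (49.7% of measured genes). Their median was -0.52, between -0.99 and 0.24. KDM1A, the most abundant in SK-UT-1, had 181 CPM in SK-LMS-1 cells and 338 CPM in SK-UT-1. JMJD1C, the most abundant in SK-LMS-1, had 284 CPM there, against 293 CPM in SK-UT-1. Writers and erasers therefore both had medians below 0, -0.73 and -0.52.

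**Figure D5:**
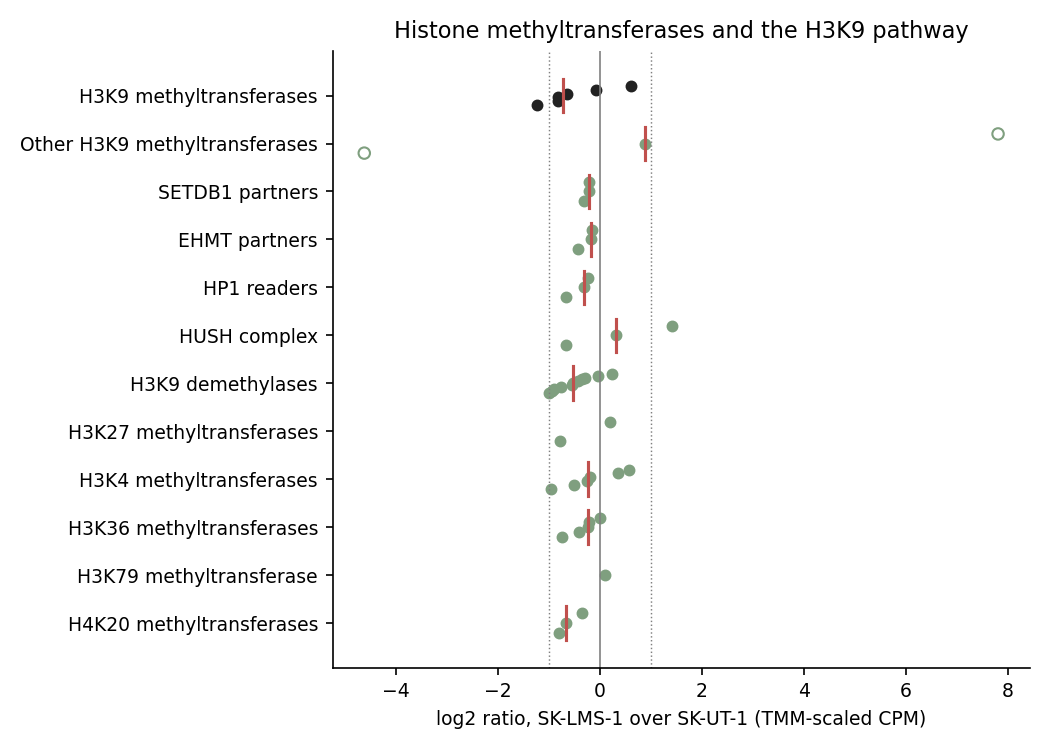
Log2 ratio of SK-LMS-1 over SK-UT-1 (horizontal axis) of measured genes in the H3K9 lists and of methyltransferases of other residues; red bars are medians of lists with 3 or more genes, dotted lines mark 2-fold, and open circles are bounds against 0 counts. The 6 members (black) lie between -1.24 and 0.60, and the PR domain genes MECOM and PRDM16 lie far out on opposite sides.

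Methyltransferases of other histone residues gave a comparison set of the same kind of enzyme. All 17 were measured, 0 passed 2-fold (40.2% of measured genes), and 13 had ratios below 0 (49.7% of measured genes). Their median was -0.26, between -0.97 and 0.56. Some of these ratios, such as those of NSD3 and KMT5C, were not separated from equality by their counting intervals. By point value SUV39H1, at -1.24, lay below the range of these 17, and SETDB2, at 0.60, just above it. The counting intervals of both reached into the range (-1.60 to -0.88 for SUV39H1 and 0.22 to 0.98 for SETDB2). The point values of the other 4 members lay within it.

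The replication genes, which follow proliferation, were MCM2 to MCM7, PCNA, CDC6 and CDT1, listed with the proliferation marker MKI67. They were lower in SK-LMS-1 at 10 of 10 (49.7% of measured genes), with a median of -0.56 and a range of -1.03 to -0.14. Of them 1, MCM4, was higher in SK-UT-1 by 2-fold or more, as were 18.3% of measured genes. Their summed level was 2363 CPM in SK-LMS-1 cells and 3336 CPM in SK-UT-1, of which MKI67 held 843 and 1146 CPM. By point value SUV39H1 lay below the range of their ratios, SETDB1, EHMT1 and EHMT2 inside it, and SUV39H2 and SETDB2 above it. The counting intervals of SUV39H1 (-1.60 to -0.88) and SUV39H2 (-0.29 to 0.13) reached into that range. The part of proliferation in the members' ratios was not tested.

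Among the listed H3K9 genes, the 1 closest to each member by distance on log2 CPM over the 2 libraries was PHF8 for SUV39H1 (distance 0.61), CDYL for SUV39H2 (0.25), MPHOSPH8 for SETDB1 (0.15), KDM7A for SETDB2 (1.26), PHF2 for EHMT1 (0.28) and KDM4A for EHMT2 (0.09). SETDB2 had no close match, and 2 libraries allow no statement on shared pattern.

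Of 8 smooth muscle markers 6 were measured, with a summed level of 1048 CPM in SK-LMS-1 cells and 518 CPM in SK-UT-1. CALD1 made up most of that sum (749 CPM in SK-LMS-1, against 343 CPM in SK-UT-1). By 2-fold or more, 3 markers favoured SK-LMS-1 cells and 2 favoured SK-UT-1, beside 40.2% of all measured genes that differed by 2-fold in either direction. The 3 were CALD1, TAGLN (61.8 CPM in SK-LMS-1, against 5.34 CPM in SK-UT-1) and CNN1 (9.77 CPM, against 2.48 CPM). The 2 were ACTA2 (10.5 CPM in SK-LMS-1, against 54.0 CPM in SK-UT-1) and DES (1 count, against 26 counts). MYOCD, the master factor of that lineage, had 0 counts in both libraries, and MYH11 was below 1 CPM in both. The leukocyte marker PTPRC and the endothelial marker VWF were at 0 in both libraries. Of the other endothelial markers, PECAM1 had 8 counts (1.22 CPM) in SK-LMS-1 cells and CDH5 had 2 counts, against 0 for both in SK-UT-1. The summed level of 4 leukocyte markers, nearly all CD68, was 92.2 CPM in SK-LMS-1 cells and 14.5 CPM in SK-UT-1. The 4 epithelial markers summed to 89.7 CPM in SK-LMS-1 cells and 28.3 CPM in SK-UT-1, and went both ways: KRT18 had 73.3 CPM in SK-LMS-1, against 10.6 CPM in SK-UT-1, KRT8 was nearly equal (16.3 and 16.2 CPM), and EPCAM had 1 count in SK-LMS-1, against 9 counts in SK-UT-1.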

How the data were processed

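The authors deposited raw counts per gene, made with featureCounts 2.0.1 on hg38 and the UCSC gene models, per the file headers. Fragments were counted over exons with strand setting 1, and fragments that overlapped more than 1 gene were counted for every one of them. The deposited gene length is in bases and sums all listed loci. Libraries were made with a stranded SMARTer total RNA kit, per the labels' protocols. No aligner is named in the header or labels. The 2 further count columns, which match neither sample, were not used.

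Counts were scaled with edgeR 4.0.16 (TMM, factors 0.949 for SK-LMS-1 cells and 1.05 for SK-UT-1) in R 4.3.3. The count of 1 fragment equals 0.153 CPM in SK-LMS-1 cells and 0.124 CPM in SK-UT-1. Levels per kb used merged exons on the primary chromosome. Ratios between libraries and between genes have exact conditional binomial intervals, double ratios the exact conditional interval of a 2 by 2 count table, shares Clopper-Pearson and counts Poisson intervals (scipy 1.17.1). Amplified reads are not independent molecules, so intervals cover counting error only. Counts below 3 were raised to 3 for the 2-fold rule. Genes named from each list are those past 2-fold, or else the member with the highest CPM. The HUSH and replication genes are all named, and of the cell type markers only some. The members and lists were chosen with earlier results of these data known. Alternatives were library totals, DESeq2 1.42.0 size factors, upper quartile, TMM on 11458 genes with enough counts, totals without small RNA genes, other size rules and other gene lengths. Ratios and intervals were also computed on simulated Poisson counts with known library sizes. That checks the computation only, because those counts have no amplification, scaling error or spread between replicates.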

Additional observations from a re-analysis of the deposited data

How the results depend on the processing

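All 30 values of the 6 members' ratios under the 5 other scalings stayed inside the counting interval of the TMM value, with the same sign. Whether the interval of SUV39H2 held 0 depended on the scaling: it did with TMM, with TMM over well-counted genes and with DESeq2 size factors, and it did not with library totals (upper end -0.03), the upper quartile (-0.0089) or totals without small RNA genes (-0.02). The intervals of the other 5 members excluded 0 under every scaling. The count of members past the size rule was 1 under every scaling, 5 with a 1.5-fold rule, 0 with a 4-fold rule and 0 where the 95% interval had to clear 2-fold entirely.

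Gene length moved the within-line paralogue ratios (log2). With the deposited length, EHMT1 over EHMT2 reversed, to 1.78 in SK-LMS-1 cells and 1.95 in SK-UT-1, because that length sums 7 loci for EHMT2. With no length correction it was -0.61 and -0.44, and SETDB2 over SETDB1 was -0.27 and -1.68, in the same order of lines. With coding length, chosen after seeing the data, SETDB2 over SETDB1 reversed to 0.57 in SK-LMS-1 cells and was -0.84 in SK-UT-1, EHMT1 over EHMT2 was -0.72 and -0.54, and SUV39H1 over SUV39H2 was -2.22 and -1.06. The length of the principal transcript, also chosen after seeing the data, moved no ratio outside its interval. Length from RefSeq proteins was not run, and the GENCODE coding length took its place. With the deposited length EHMT2 fell to the lowest level in SK-LMS-1 (2.55 CPM per kb) and SUV39H2 led in both lines. Double ratios have no alternative, since any 1 length per gene and any scaling cancel.

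No paired analysis was possible because each line has 1 library. Depth limits the members at 88 to 912 counts each.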

Other observations

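Among methyltransferases of other residues, the pair of H3K27 enzymes EZH2 and EZH1 had ratios on opposite sides of 0 by point value only. EZH2, the enzyme of dividing cells, had 655 counts (99.96 CPM) in SK-LMS-1 cells and 1385 counts (172 CPM) in SK-UT-1, a log2 ratio of -0.78. EZH1 had 139 counts (21.2 CPM) in SK-LMS-1 cells and 148 counts (18.4 CPM) in SK-UT-1, a log2 ratio of 0.21. As a plain ratio this was 1.15 (0.909 to 1.46), an interval that holds 1, so no difference in EZH1 was detectable. The 3 H4K20 enzymes, of which KMT5B and KMT5C are recruited to heterochromatin by HP1, had ratios between -0.80 and -0.35, with a median of -0.66. The 6 H3K4 enzymes lay on both sides of 0, between -0.97 and 0.56, and the 5 H3K36 enzymes between -0.75 and -0.0049, while DOT1L, the H3K79 enzyme, was at 0.10. All 17 lay within 2-fold, as did 59.8% of all measured genes, and none of these values has a replicate check.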
